A study of Rattus norvegicus with 18 samples.

Results

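Of the 32623 genes in the expression tables of control, NASH and NASH-CH rat livers, 9 genes of MHC class II antigen presentation and of B cells were selected by symbol and followed in every animal. The class II genes were 6: RT1-Ba (ENSRNOG00000000451), RT1-Bb (ENSRNOG00000032708), RT1-Da (ENSRNOG00000032844), RT1-Db1 (ENSRNOG00000033215), Cd74 (ENSRNOG00000018735) and Ciita (ENSRNOG00000002659). The B cell genes were 3: Cd79a (ENSRNOG00000020125), Cd79b (ENSRNOG00000011917) and Ms4a1 (ENSRNOG00000020945). The choice was made by symbol, with no threshold on a measured value.

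Liver RNA of 18 Wistar rats, males by the methods, was sequenced as 1 library per animal, with 6 animals in each group. NASH rats were given 6 weeks of inhaled CCl4, which injures hepatocytes, together with oral phenobarbital, followed by 4 weeks of a diet high in fat and cholesterol (HFCD) without CCl4. In NASH-CH rats, a protocol meant to give cirrhosis, CCl4 and phenobarbital lasted the full 24 weeks and the HFCD filled the last 16. Control rats received chow and normal water for 12 weeks, so age, diet, CCl4 and phenobarbital cannot be told apart in any comparison with them. These durations follow the methods, whereas the labels give a combined treatment of 10 or 24 weeks. Total expected counts ran from 19498534 to 27174015 in control, from 20827770 to 29491947 in NASH and from 44680344 to 60117822 in NASH-CH livers, so the deeper libraries all belonged to 1 group. In CPM (counts scaled by the TMM-adjusted total of the library), 8 hepatocyte markers summed to between 82993 and 186351 in every rat.

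MHC class II molecules are pairs of an alpha and a beta chain that show peptides from endocytosed proteins to CD4+ T cells. Rat RT1-B corresponds to human HLA-DQ and rat RT1-D to HLA-DR. The invariant chain, encoded by Cd74, escorts newly made pairs to endosomes, and the transactivator encoded by Ciita switches on transcription of the chains and of Cd74 through factors bound to their promoters. In the liver, dendritic cells, Kupffer cells and B cells carry most class II, whereas Cd79a and Cd79b, the signalling subunits of the B cell receptor, and Ms4a1, which encodes CD20, mark B cells before they become plasma cells.

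The promoters of the class II genes are shown because these genes are known to be switched on together through a conserved X box and Y box close to the start of transcription. RefSeq promoters on GRCr8 were found for 6 of the 9 members, and Ciita, Cd79b and Ms4a1 had no entry in the table used here. The stretches of 100 bases below are read 5′ to 3′ on the strand of each gene, and capitals mark CTGATTGG, which contains the ATTGG of the Y box, and AGNAAC (N being any base), the core of the X1 box. They lie at chr20:4576951-4577050 on the plus strand (RT1-Ba), chr20:4604143-4604242 on the minus strand (RT1-Bb), chr20:4515303-4515402 on the plus strand (RT1-Da), chr20:4560206-4560305 on the minus strand (RT1-Db1) and chr18:56527075-56527174 on the plus strand (Cd74).
RT1-Ba: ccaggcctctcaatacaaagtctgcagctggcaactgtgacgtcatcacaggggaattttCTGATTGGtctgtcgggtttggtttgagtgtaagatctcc
RT1-Bb: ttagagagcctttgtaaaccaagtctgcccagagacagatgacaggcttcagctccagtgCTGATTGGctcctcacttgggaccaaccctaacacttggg
RT1-Da: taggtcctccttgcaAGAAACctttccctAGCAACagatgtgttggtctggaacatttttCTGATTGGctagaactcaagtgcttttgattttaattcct
RT1-Db1: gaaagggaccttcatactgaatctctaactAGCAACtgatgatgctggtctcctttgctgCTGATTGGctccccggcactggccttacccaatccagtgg
Cd74: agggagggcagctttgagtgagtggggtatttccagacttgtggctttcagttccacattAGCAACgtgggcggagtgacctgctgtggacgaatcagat

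All 4 chain genes carried CTGATTGG on the gene strand, at positions -46 to -39 in RT1-Ba, -64 to -57 in RT1-Bb, -52 to -45 in RT1-Da and -83 to -76 in RT1-Db1, where -1 is the base before the start. These 8 letters were picked out after the sequences had been read, and 3.5% of all 33469 promoters of the same length held them on either strand. The shorter ATTGG was in 37.5% of all promoters and AGNAAC in 48.6%. An AGNAAC followed by ATTGG on the same strand, with 15 to 40 bases between them, was found in RT1-Da (28 bases between) and RT1-Db1 (27 bases between), and in 1.53% of all promoters. Cd74 had AGNAAC on the gene strand, and its only ATTGG was on the other strand. The Cd79a promoter held neither CCCNNGGG, a core bound by the B cell factor EBF1 (12.4% of all promoters), nor the octamer ATGCAAAT (1.78%). The ETS core GGAA, a letter run present in 95.8% of all promoters, was in all matched members except RT1-Db1. These letter matches on both strands are a description of the sequences and say nothing on what bound there in these livers.

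At the level of the whole liver, no member passed the test in any comparison. Of the 9 members, 7 passed the filter on low counts, and limma-voom called 0 of these 7 in NASH against control, 0 of 7 in NASH-CH against control and 0 of 7 in NASH-CH against NASH (adjusted p under 0.05 over 12904 tested genes). Beside these counts, 1.58% of all tested genes were called higher and 1.54% lower in NASH against control, 8.38% higher and 8.6% lower in NASH-CH against control, and 1.81% higher and 2.39% lower in NASH-CH against NASH. At an unadjusted p under 0.05 the number of members was also 0 of 7 in each comparison, against 21.5%, 31.7% and 17.5% of all tested genes, respectively. The edgeR and DESeq2 tests called 0 members as well. The members were measured less precisely than most genes, with standard errors from 0.27 to 0.52 on the log2 scale where the median over all tested genes lay between 0.16 and 0.17. The control rats are shared by both comparisons with control, and the NASH and NASH-CH rats are each used in 2 comparisons.

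RT1-Ba and RT1-Bb encode the alpha and beta chains of RT1-B. RT1-Ba ran from 4.67 to 9.67 CPM with a median of 8.23 in control, from 4.36 to 7.63 with a median of 5.42 in NASH, and from 3.87 to 21.1 with a median of 6.88 in NASH-CH livers. The groups overlapped, although all 6 NASH rats lay below the control median. The log2 fold change was -0.42 in NASH against control (95% interval -1.16 to 0.31, limma-voom adjusted p = 0.518), 0.06 in NASH-CH against control (-0.60 to 0.73, adjusted p = 0.907) and 0.49 in NASH-CH against NASH (-0.19 to 1.17, adjusted p = 0.467).

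RT1-Bb ran from 4.3 to 13.7 CPM with a median of 9.83 in control, from 5.75 to 9.17 with a median of 8.36 in NASH, and from 5.02 to 18.7 with a median of 8.88 in NASH-CH livers. Again all 6 NASH rats lay below the control median, and the NASH-CH rats fell on both sides of it, 3 above and 3 below. Its log2 fold change was -0.17 (-0.87 to 0.53, limma-voom adjusted p = 0.808), 0.09 (-0.57 to 0.75, adjusted p = 0.864) and 0.27 (-0.39 to 0.92, adjusted p = 0.718) in NASH against control, NASH-CH against control and NASH-CH against NASH, respectively.

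RT1-Da and RT1-Db1 encode the chains of RT1-D. RT1-Da ran from 17.8 to 43.9 CPM with a median of 27.1 in control, from 17.1 to 27.1 with a median of 20 in NASH, and from 17.9 to 83.9 with a median of 24.7 in NASH-CH livers. Of the NASH rats, 1 lay below all control rats and 5 inside the control range, and all NASH-CH rats but 1 lay inside it. The log2 fold change was -0.42 in NASH against control (-0.99 to 0.15, limma-voom adjusted p = 0.393), 0.08 in NASH-CH against control (-0.49 to 0.66, adjusted p = 0.858) and 0.50 in NASH-CH against NASH (-0.08 to 1.08, adjusted p = 0.365).

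RT1-Db1 ran from 5.17 to 14.6 CPM with a median of 8.74 in control, from 5.97 to 9.06 with a median of 6.97 in NASH, and from 5.68 to 22.9 with a median of 8.31 in NASH-CH livers. All 6 NASH rats were inside the control range, as were all NASH-CH rats but 1. The log2 fold changes were -0.34 (-0.97 to 0.29, limma-voom adjusted p = 0.555), 0.05 (-0.54 to 0.63, adjusted p = 0.921) and 0.38 (-0.20 to 0.97, adjusted p = 0.516), in the same order of comparisons. The related class II symbols RT1-Db2 and RT1-Ha had from 0 to 14 and from 0 to 19 expected counts per rat, and how reads shared by near-identical chains were divided among them cannot be seen in the tables.

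Cd74 ran from 49.7 to 108 CPM with a median of 69 in control, from 47.5 to 82 with a median of 57.8 in NASH, and from 53 to 326 with a median of 76.1 in NASH-CH livers. Its NASH-CH mean was 116 ± 104 CPM (SD, n = 6) and, without the highest animal, 73.7 ± 15.2 (SD, n = 5), and the medians of the control and NASH-CH groups were close to each other. The log2 fold change was -0.24 in NASH against control (-0.85 to 0.38, limma-voom adjusted p = 0.686) and 0.38 in NASH-CH against control (-0.28 to 1.04, adjusted p = 0.428). In NASH-CH against NASH it was 0.61 (-0.04 to 1.27), the member value closest to the threshold, with an unadjusted p of 0.0656 and an adjusted p of 0.323 in limma-voom.

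Ciita, the transactivator of the genes above, ran from 1.28 to 2.48 CPM with a median of 1.72 in control, from 1.03 to 2.16 with a median of 1.79 in NASH, and from 1.26 to 5.1 with a median of 1.63 in NASH-CH livers. The medians of the 3 groups differed by less than the spread inside any of them. Its log2 fold change was -0.0090 (-0.81 to 0.79, limma-voom adjusted p = 0.992), 0.25 (-0.45 to 0.96, adjusted p = 0.644) and 0.26 (-0.42 to 0.94, adjusted p = 0.740) in NASH against control, NASH-CH against control and NASH-CH against NASH. Over the 3 comparisons the intervals of the 6 class II genes reached from -1.16 to 1.27 on the log2 scale, so these tests do not show that their levels were alike.

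**Figure D1:**
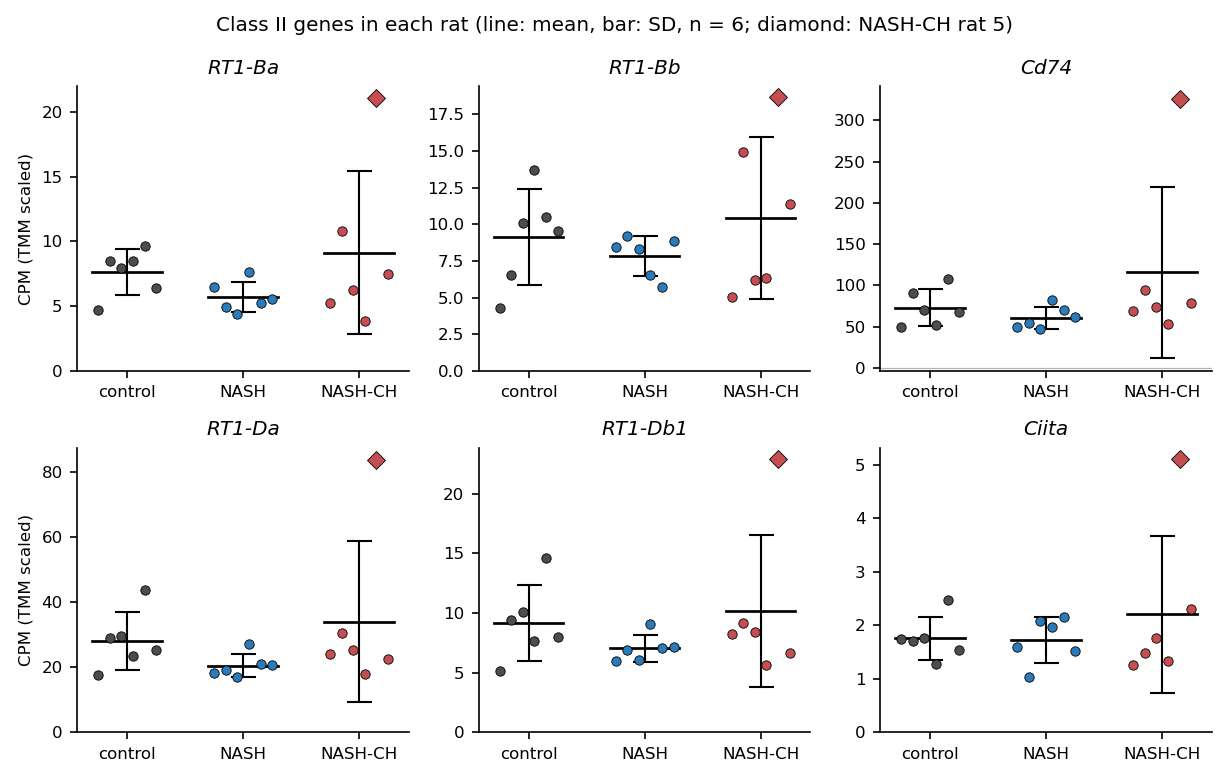
Level of the 6 class II genes in each rat (vertical axes, TMM-scaled CPM, starting at 0) in the control, NASH and NASH-CH groups, with a point per rat, a line at the mean and a bar of 1 SD (n = 6). The diamond is NASH-CH rat 5, which is the highest of all 18 rats in every panel, while the other NASH-CH rats overlap the control rats.

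A single animal, NASH-CH rat 5, had the highest level of all 18 rats for each of the 6 class II genes. Its Cd74 level was 326 CPM, 4.41 times the median of the other 5 NASH-CH rats, which ran from 53 to 94.8 CPM. The ratio was 3.49 for RT1-Da, 3.45 for Ciita, 3.38 for RT1-Ba, 2.94 for RT1-Bb and 2.79 for RT1-Db1. The B cell genes did not share this rank, since the same animal stood 6th of 18 for Cd79a, 13th for Cd79b and 2nd for Ms4a1. Its ratio to the median of the other 5 NASH-CH rats was 1.64 for Cd79a, 0.838 for Cd79b and 1.87 for Ms4a1, on 11.1, 19 and 23 expected counts. For Cd79a and Ms4a1 it was the highest of the NASH-CH rats. Among all tested genes, rat 5 was the highest of its group in 25.4%, and its ratio to the median of the other 5 was 4 or more in 1.66%. Of the 6 class II genes only Cd74 reached a ratio of 4. The share of all genes in which rat 5 was the highest of all 18 rats was not counted, nor was the share at the lower ratios of the other class II genes.

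Without rat 5, the log2 fold change in NASH-CH against control turned negative for RT1-Ba (-0.24, limma-voom adjusted p = 0.491), RT1-Bb (-0.12, adjusted p = 0.816), RT1-Da (-0.20, adjusted p = 0.483), RT1-Db1 (-0.23, adjusted p = 0.421) and Ciita (-0.09, adjusted p = 0.791), and it was 0.04 for Cd74 (SE 0.21, adjusted p = 0.910). In NASH-CH against NASH, Cd74 moved from 0.61 to 0.27 (limma-voom adjusted p = 0.577) and RT1-Da from 0.50 to 0.21 (adjusted p = 0.634). Other animals turned a sign too: without control rat 1, the NASH-CH against control values of all 4 chains were below 0, between -0.08 and -0.04.

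Markers of other cells also stood apart in rat 5. Its summed bile duct cell markers came to 48.9 CPM, 3.25 times the median of the other 5 NASH-CH rats, and the sum of 8 genes shared by all leukocytes came to 93.1 CPM (1.87 times), both the highest of the 18 rats. The T cell sum (1.63 times) and the sum of B cell markers outside the members (1.44 times) also ranked first, and the macrophage (1.29 times) and dendritic cell (1.34 times) sums ranked second. Of the T cell sum of 22.6 CPM in rat 5, Cd4 made up 16 CPM (1.49 times), and Lck and Cd8a were at 1.68 and 2.26 times. The macrophage genes named below did not move as 1 in rat 5. Lyz2 (3.57 times), Gpnmb (2.01), Trem2 (1.64) and Csf1r (1.29) were above the median of the other 5 NASH-CH rats. C1qb (1.02) and C1qc (1.03) were near it, and Clec4f (0.81), Cd163 (0.776) and Vsig4 (0.738) were below it. Hepatocyte markers (0.695 times) and sinusoidal endothelial markers (0.601 times) were the lowest of the 18 rats. The levels are those of bulk tissue, in which fewer cells of a type and less RNA per cell cannot be told apart, and the part of these cell markers in the class II levels was not tested.

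The all-leukocyte sum matched some, not all, of the extreme class II values in the other rats. Control rat 1 had the lowest and control rat 5 the highest level of RT1-Ba, RT1-Da, RT1-Db1 and Cd74 among control rats, and their all-leukocyte sums, 39.4 and 64.5 CPM, were the lowest and highest of that group. Control rat 4 had almost the same low sum, 39.5 CPM, with RT1-Ba at 8.51 CPM, above the control median of 8.23. Among NASH rats, rat 4 was the highest for these 4 genes and had the highest all-leukocyte sum of its group, 50.5 CPM. At the low end of that group only RT1-Db1 matched, being lowest (5.97 CPM) in NASH rat 1, which had the lowest sum, 38.1 CPM. RT1-Ba, RT1-Da and Cd74 did not match, since they were lowest in NASH rat 3, with a sum of 46.4 CPM. RT1-Bb did not match either, being highest among controls in rat 4 (13.7 CPM, sum 39.5) and second lowest among NASH rats in rat 4 (6.54 CPM). Among NASH-CH rats, RT1-Ba, RT1-Da, RT1-Db1 and Cd74 were lowest in rat 4 (sum 47.4 CPM), whereas rat 6 had the lowest all-leukocyte sum, 43.9 CPM. The range of that sum was 39.4 to 64.5 CPM in control, 38.1 to 50.5 in NASH and 43.9 to 93.1 in NASH-CH livers, and none of the listed leukocyte genes was at 0 in every rat.

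**Figure D2:**
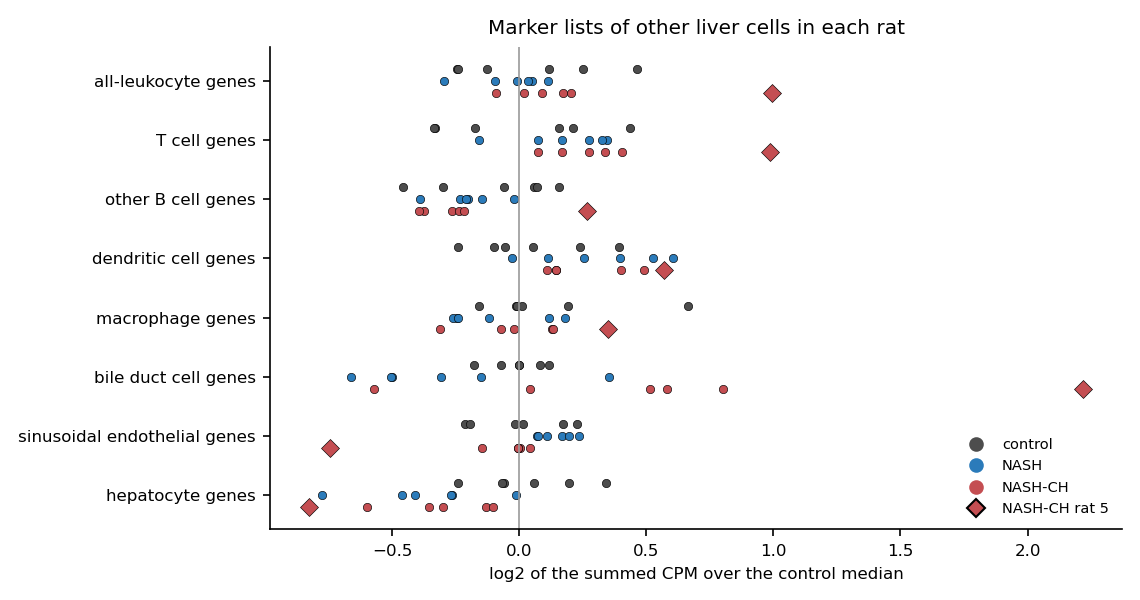
Summed CPM of 8 marker lists in each rat as log2 of its ratio to the control median (horizontal axis), with a point per rat coloured by group. The diamond, NASH-CH rat 5, lies at the right end for bile duct, all-leukocyte, T cell and other B cell genes and at the left end for sinusoidal endothelial and hepatocyte genes.

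The B cell genes were close to the limit of detection. Cd79a was counted 0 to 8.35 times per rat in control (median 1.41), 0 to 12.9 times in NASH (median 7) and 2.95 to 11.1 times in NASH-CH livers (median 4.67). Scaled for depth, the medians were 0.0564, 0.287 and 0.0895 CPM, respectively. In NASH, 3 of 6 rats exceeded every control rat and 1 had 0 counts, so the groups overlapped. Cd79a failed the filter on low counts, and in the fit without a filter its log2 fold change was 1.09 in NASH against control (SE 0.66, limma-voom adjusted p = 0.428), 0.38 in NASH-CH against control (SE 0.65, adjusted p = 0.709) and -0.72 in NASH-CH against NASH (SE 0.66, adjusted p = 0.541).

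Cd79b had 0 to 19 counts per rat in control, 4 to 19 in NASH and 10 to 20 in NASH-CH livers, with median levels of 0.22, 0.304 and 0.278 CPM. The rat at 0 was control rat 1, the library with the lowest scaled total, in which a count of 0 allows up to 0.187 CPM by 3 counts. The log2 fold change was 0.51 in NASH against control (-0.58 to 1.61, limma-voom adjusted p = 0.611), 0.24 in NASH-CH against control (-0.77 to 1.26, adjusted p = 0.766) and -0.27 in NASH-CH against NASH (-1.18 to 0.63, adjusted p = 0.807). The direction in NASH-CH against control was not settled, since the value was -0.09 with edgeR, -0.10 with DESeq2 and -0.23 without control rat 1.

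Ms4a1 had 2 to 8 counts per rat in control, 1 to 11 in NASH and 3 to 23 in NASH-CH livers, with medians of 0.161, 0.239 and 0.167 CPM. The ranges overlapped in every comparison. Ms4a1 failed the filter as well, and the fit without a filter gave log2 fold changes of 0.14 (SE 0.52), -0.16 (SE 0.48) and -0.30 (SE 0.48) in NASH against control, NASH-CH against control and NASH-CH against NASH, with limma-voom adjusted p-values of 0.938, 0.840 and 0.750. At these counts a difference between groups in B cell transcripts was not detectable unless it was large. The floor of 3 counts covers counting error only, whereas the fitted intervals include the spread between rats.

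**Figure D3:**
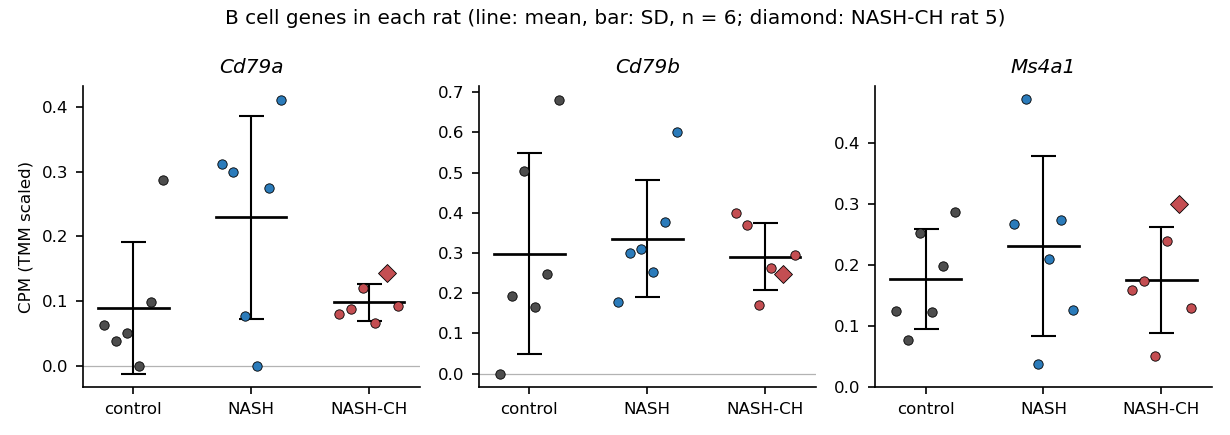
Level of the 3 B cell genes in each rat (vertical axes, TMM-scaled CPM) in the control, NASH and NASH-CH groups, with a point per rat, a line at the mean and a bar of 1 SD (n = 6). All values lie between 0 and 0.681 CPM and the groups overlap, with NASH-CH rat 5 (diamond) inside the range of the other rats in each panel.

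Across the 7 tested members the median log2 fold change was -0.24 in NASH against control, where the median of all tested genes was 0.0072, and 6 of the 7 values lay below 0. In NASH-CH against control the median was 0.09 (0.01 over all genes) and all 7 values lay above 0, a count that rests on rat 5 as given above. In NASH-CH against NASH it was 0.38 (0.0068 over all genes), with 6 of 7 values above 0. These counts describe genes that vary together and carry no test.

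**Figure D4:**
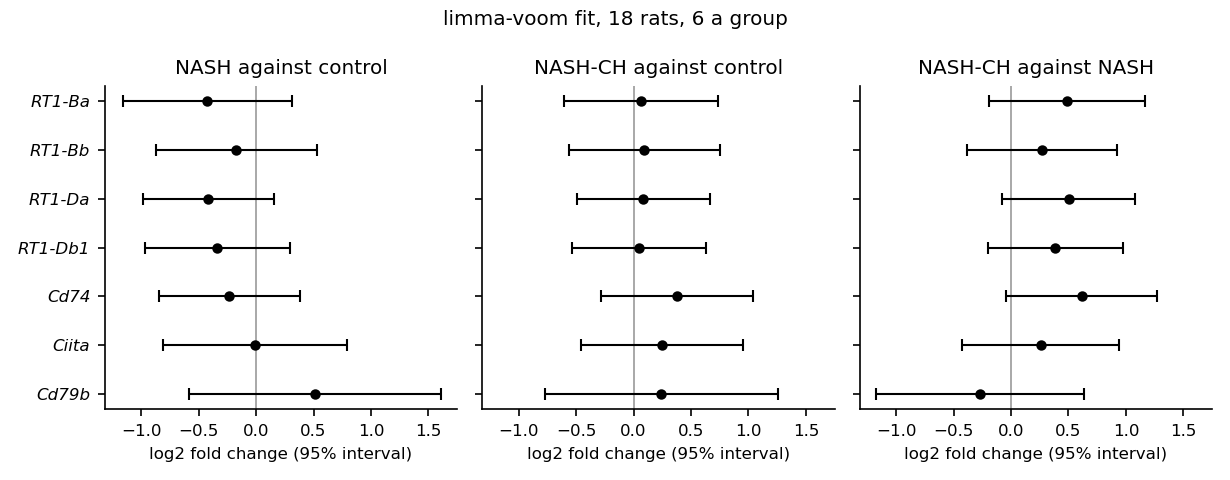
Fitted log2 fold change (horizontal axis, point) with its 95% interval (bar) for the 7 tested members in the 3 comparisons, from limma-voom on 18 rats. Each of the 21 intervals includes 0, and the widest are those of Cd79b.

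Inside the groups, most class II genes varied together from rat to rat. Deviations of log2 CPM from the group mean were correlated over the 18 rats for all 36 pairs of members, with p-values from 100000 permutations inside the groups. RT1-Da and RT1-Db1 had r = 0.99 and rho = 0.96 (permutation p = 1e-05 for each, the smallest these permutations can give, adjusted p = 0.00012 and 0.00024), and r was 0.97 without the 2 rats farthest from the median. Cd74 and RT1-Da had r = 0.97 (permutation p = 1e-05, adjusted p = 0.00012) and rho = 0.93 (permutation p = 2e-05, adjusted p = 0.00024), with r = 0.92 without the 2 farthest rats. The values of the transactivator were lower. Cd74 and Ciita had r = 0.81 (permutation p = 0.00461, adjusted p = 0.0207) and rho = 0.56 (permutation p = 0.0201, adjusted p = 0.0906), and r fell to 0.45 without the 2 farthest rats. Ciita had only 28 to 50 counts per rat in control and 24 to 63 in NASH livers, against 797 to 2356 and 1104 to 2053 for Cd74. The part of counting noise in the lower r of Ciita was not tested.

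RT1-Bb stood somewhat outside the class II group. Its r with RT1-Ba was 0.74 (permutation p = 0.0035, adjusted p = 0.018), with rho of 0.71 (permutation p = 0.00678, adjusted p = 0.0349) and r of 0.65 without the 2 farthest rats. With Cd74 its r was 0.50 (permutation p = 0.0854, adjusted p = 0.220) and rho 0.44 (permutation p = 0.108, adjusted p = 0.323), with r = 0.43 without the 2 farthest rats. The rats left out here were control rat 1 and NASH-CH rat 1, and without NASH-CH rat 5 r was 0.20. Within the NASH group alone, r between RT1-Bb and Cd74 was -0.73, against 0.17 in control and 0.78 in NASH-CH rats, each over 6 rats and not tested against each other.

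In all, r passed the threshold in 8 of the 15 class II pairs and rho in 7, with r from 0.35 to 0.99 and a median of 0.75. The share of pairs of other genes that would pass was not computed, so these counts do not show a trait particular to class II genes. The 3 pairs of B cell genes had r from 0.26 to 0.35, and the 18 pairs of a class II with a B cell gene had r from -0.08 to 0.38 with a median of 0.15, of which 0 passed by r or rho. In counts as small as those of the B cell genes a low r is no finding. Without NASH-CH rat 5 the median over the class II pairs was 0.49, and 6 of all 36 pairs passed. The libraries share their scaling, so the r values are not independent of each other.

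**Figure D5:**
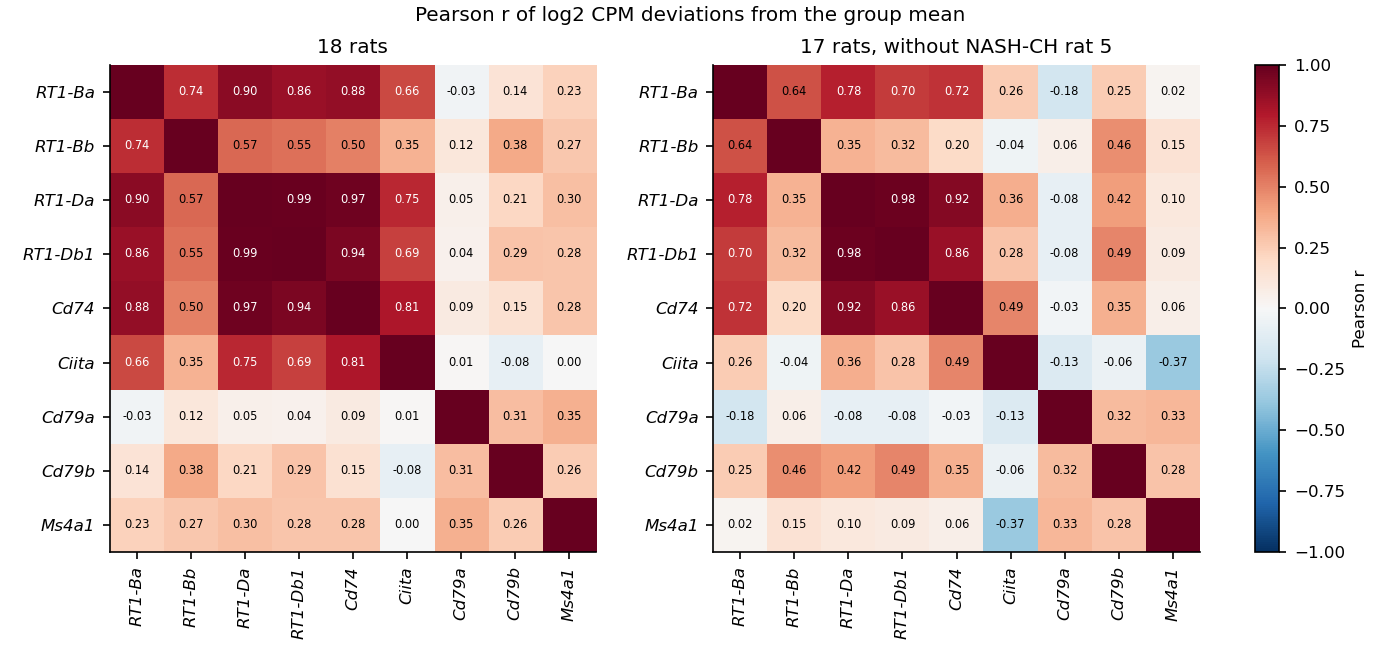
Pearson r of log2 CPM deviations from the group mean for each pair of members (colour and printed value), over 18 rats on the left and over 17 rats, without NASH-CH rat 5, on the right. The block of RT1-Ba, RT1-Da, RT1-Db1 and Cd74 stays at 0.70 or more without that rat, whereas r of Ciita with these genes falls from between 0.66 and 0.81 to between 0.26 and 0.49.

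Ratios of 2 members inside a rat, which do not depend on the scaling of the library, showed the same close and loose partners. The log2 ratio of RT1-Da to RT1-Db1 counts varied little, with an SD over 6 rats of 0.08 (control), 0.05 (NASH) and 0.12 (NASH-CH). That of RT1-Ba to RT1-Bb, likewise the chains of a single molecule, had an SD of 0.41, 0.45 and 0.38, and that of RT1-Bb to RT1-Db1 of 0.51, 0.42 and 0.62. The mean log2 ratio of Cd74 to RT1-Da was 1.37 ± 0.18 (control), 1.55 ± 0.11 (NASH) and 1.67 ± 0.18 (NASH-CH; SD, n = 6), with overlapping ranges of 1.13 to 1.65, 1.43 to 1.75 and 1.51 to 1.96, and its difference between groups was not tested.

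The tested genes outside the members with the deviations most like those of Cd74 over the 18 rats were Rhoc (r = 0.93), Slc25a21 (0.92), Lcp1 (0.91), the interferon gamma receptor subunit Ifngr2 (0.90) and the integrin subunit Itgb1 (0.90). Each was above the r of Cd74 with RT1-Ba (0.88) and below that with RT1-Da (0.97) and RT1-Db1 (0.94). Without rat 5 the r values of these outside genes with Cd74 were between 0.66 and 0.79. Only Rhoc (0.79) was then above the r of Cd74 with RT1-Ba, which was 0.7209, although Lcp1 (0.7195) and Slc25a21 (0.7182) were close to it. For Cd79b the outside genes most alike were Hyls1 (r = 0.85), Zfp717 (0.83), Rap1b (0.82), Plek (0.80) and Rn50_20_0060.5 (0.79). They were picked as the highest of 12904 genes and are a description.

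The genes that help load or degrade class II peptides gave few calls either. Of 13 measured rows of accessory genes, all tested, 1 was lower in NASH-CH against control and 12 did not pass. The gene that fell was Ctss, whose protease trims the invariant chain, from 13.1 ± 3.05 CPM in control to 8.99 ± 1.88 in NASH-CH livers (SD, n = 6), and its log2 fold change was -0.53 (SE 0.16, limma-voom adjusted p = 0.0321). This call was lost in 8 of 28 other fits, where the adjusted p reached 0.217. RT1-DMb, which helps exchange peptides, is listed in 2 rows, and the row nearer to the threshold had a log2 fold change of 2.94 with an SE of 1.28 (adjusted p = 0.124). None of the 13 passed in NASH against control or NASH-CH against NASH.

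Among 15 tested regulators of class II transcription (17 measured), which include the RFX and NF-Y subunits that bind the X and Y boxes and the interferon gamma receptor, 0 passed in any comparison by limma-voom. The closest in NASH-CH against control was Jak1, a kinase of the interferon receptors, at 0.22 in log2 fold change (SE 0.08, adjusted p = 0.0604), followed by Nfyb, a subunit of NF-Y, with -0.33 (SE 0.15, adjusted p = 0.156). The median over these regulators was 0.09, against 0.01 over all genes. Of 4 tested co-stimulatory genes 0 passed, with Cd40 at -0.28 (adjusted p = 0.525) and Cd86 at -0.15 (adjusted p = 0.702) in limma-voom.

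Among partners of the Cd74 protein at the cell surface, Cxcr4, a chemokine receptor that pairs with it, rose from 2.07 ± 1.09 CPM in control to 6.86 ± 3.98 in NASH-CH livers (SD, n = 6), or 1.69 as a log2 fold change (SE 0.40, limma-voom adjusted p = 0.0078), and this call was kept in 28 of 28 other fits. Cd44, its signalling partner, had 1.03 (SE 0.47, adjusted p = 0.139) and rat 5 was at 5.79 times the median of the other NASH-CH rats. Of the 3 tested genes of this list, 1 passed in NASH-CH against control and 0 in the other 2 comparisons.

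Class I presentation, which shows peptides made inside the cell to CD8+ T cells, gave 1 higher and 1 lower gene of 18 tested in NASH-CH against control. RT1-S3, a class I heavy chain, fell from 91.5 ± 16.1 to 56.6 ± 13.2 CPM (SD, n = 6), and its log2 fold change was -0.70 (SE 0.16, limma-voom adjusted p = 0.00547). Erap1, which trims peptides for class I, rose from 37.4 ± 5.96 to 51.2 ± 7.68 CPM with 0.45 (SE 0.12, adjusted p = 0.0145). Both calls were kept in 28 of 28 other fits, and 0 of 18 passed in each of the other comparisons.

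Of 10 tested B cell genes outside the members (16 measured), 1 was higher, 1 lower and 8 did not pass in NASH-CH against control, and 0 passed in the other 2 comparisons. Cxcr5, the receptor that guides B cells to follicles, rose from 0.273 ± 0.172 to 0.621 ± 0.167 CPM (SD, n = 6), and its log2 fold change was 1.22 (SE 0.37, limma-voom adjusted p = 0.0316). Cd22, an inhibitory B cell receptor, fell from 5.04 ± 1.55 to 3.28 ± 0.581 CPM with -0.57 (SE 0.17, adjusted p = 0.0288). The call of Cxcr5 was lost in 6 of 27 other fits and that of Cd22 in 8 of 28. The summed level of the 16 genes ran from 8.04 to 12.3 CPM in control, from 8.42 to 10.9 in NASH and from 8.41 to 13.3 in NASH-CH livers.

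Of 5 tested plasma cell genes (8 measured), Sdc1 rose in NASH-CH against control, from 37.7 ± 5.71 to 70.7 ± 8.99 CPM (SD, n = 6), and its log2 fold change was 0.91 (SE 0.13, limma-voom adjusted p = 0.000157), and it also passed in NASH-CH against NASH. Sdc1 encodes syndecan 1, which hepatocytes carry as well. The other 4 did not pass, among them the plasma cell regulators Irf4 (0.85, adjusted p = 0.217) and Prdm1 (0.34, adjusted p = 0.344). Only 8 of the 15 symbols of this list were found, most immunoglobulin symbols being absent. Igh-6, a heavy chain gene by its symbol and outside the list, is given under other observations.

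Genes that mark the class II bearing cells of the liver gave calls among macrophage genes and none among dendritic cell genes. Of 10 tested dendritic cell genes 0 passed in any comparison by limma-voom, and the summed level of the list ran from 22.5 to 34.9 CPM in control, from 26.1 to 40.5 in NASH and from 28.7 to 39.5 in NASH-CH livers. Of 13 tested macrophage genes, 3 were higher, 6 lower and 4 did not pass in NASH-CH against control. The 3 that rose were Gpnmb (log2 fold change 3.11, adjusted p = 5.323e-07), Trem2 (4.78, adjusted p = 6.528e-06) and Lyz2 (1.58, adjusted p = 0.000659), known from lipid-laden and scar macrophages or from macrophages in general. Trem2 was at 0.00826 ± 0.0202 CPM in control and 0.758 ± 0.287 in NASH-CH livers (SD, n = 6). The size of its fold change rests on a control level near 0. Those that fell included Csf1r (-0.46, adjusted p = 0.00635), a receptor of the macrophage lineage, and 5 genes of resident Kupffer cells and their complement products, namely Cd163 (-0.48, adjusted p = 0.0304), C1qb (-0.42, adjusted p = 0.0318), C1qc (-0.43, adjusted p = 0.0380), Clec4f (-0.58, adjusted p = 0.0381) and Vsig4 (-0.56, adjusted p = 0.0470). These 5 calls were lost in 7, 6, 8, 10 and 17 of 28 other fits, respectively, with the direction unchanged in all of them. Gpnmb, Trem2 and Lyz2 were also higher in NASH-CH against NASH, where 0 of the 13 were lower. In NASH against control only Gpnmb passed (1.57, limma-voom adjusted p = 0.00667). The macrophage sum ran from 324 to 572 CPM in control, from 302 to 410 in NASH and from 291 to 460 in NASH-CH livers, and the part of these shifts in the class II values was not tested.

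Of the signals that gather lymphocytes, 3 of 9 tested genes were higher in NASH-CH against control. Il7, a lymphocyte growth factor, rose from 0.307 ± 0.176 to 1.54 ± 0.274 CPM (SD, n = 6), and its log2 fold change was 2.39 (SE 0.30, limma-voom adjusted p = 2.394e-05). Ccl21, a chemokine of lymphoid tissue, had 2.09 (SE 0.65, adjusted p = 0.0341) with rat 5 at 9.66 times the median of the other NASH-CH rats, and Ltbr, a receptor of lymphoid organ formation, had 0.46 (SE 0.15, adjusted p = 0.0370). The calls of Ccl21 and Ltbr were lost in 9 and 10 of 28 other fits. Il7 was the 1 gene of this list that also passed in NASH against control and in NASH-CH against NASH.

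T cell genes, the counterpart of class II presentation, were mostly below the filter, with 3 of 11 tested and 0 passing in any comparison by limma-voom, Cd4 being at 0.31 (SE 0.15, adjusted p = 0.180) in NASH-CH against control. Of 7 tested all-leukocyte genes, Cd53 rose in NASH-CH against control from 3.23 ± 0.892 to 5.39 ± 2.13 CPM (SD, n = 6), and its log2 fold change was 0.71 (SE 0.23, adjusted p = 0.0408), a call lost in 9 of 28 other fits, among them 8 that left out 1 rat, whereas Ptprc, which encodes CD45, had 0.28 (SE 0.19, adjusted p = 0.328). None of the 7 sinusoidal endothelial and 5 bile duct cell genes tested passed in that comparison, and 3 of 8 hepatocyte genes were lower, namely Alb (-0.61), Ttr (-0.76) and Apoa1 (-0.66). Their summed levels ran from 277 to 376, 337 to 378 and 192 to 331 CPM for endothelial genes, from 9.29 to 11.4, 6.63 to 13.4 and 7.07 to 48.9 CPM for bile duct genes, and from 124682 to 186351, 86054 to 145816 and 82993 to 137018 CPM for hepatocyte genes in control, NASH and NASH-CH livers. In NASH-CH against NASH, Spp1 of the bile duct list was higher (1.61, limma-voom adjusted p = 0.0153) and Stab1 of the endothelial list lower (-0.69, adjusted p = 0.0318). Apoa1 was also lower in NASH against control (-0.82, limma-voom adjusted p = 0.0110).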

How the data were processed

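After trimming and 2-pass STAR alignment to Rnor_6.0, the authors counted with RSEM on Ensembl release 95 and deposited its expected counts per gene, not normalized for depth or gene length. Tool versions are not given in the sources used here. Labels name a stranded TruSeq kit, and whether counting used strand is not given. Genes with no symbol (197 rows) held 0.0243% to 0.035% of the counts.

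Expected counts were rounded, filtered with filterByExpr of edgeR 4.0.16, scaled by TMM and fitted with limma 3.58.1 (voom, moderated t) in R 4.3.3, with a mean per group over 18 rats and Benjamini-Hochberg adjustment over 12904 genes at 0.05. CPM use the same scaling. Correlations used log2 CPM with a prior count of 2, and ratios an offset of 0.5. Leukocyte and other sums are sums of CPM over all measured genes of a list. DESeq2 1.42.0, edgeR's quasi-likelihood test, other scalings, filters, sample weights, a thinning of the NASH-CH libraries to the median control total, a replicate block and leaving out each rat were alternatives. The limma-voom, edgeR and DESeq2 fits and the permutation of correlations were tested on simulated data.

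The members and the gene lists were chosen with earlier results of these data known. Named genes were all members, up to 4 genes per list with the largest absolute moderated t in NASH-CH against control (and all genes of a list that passed, where the text gives their names), and the 5 genes most like Cd74 and Cd79b. Icosl, Mif, Cd5, Pecam1 and 9 immunoglobulin and joining chain symbols of the lists had no match among the symbols of the 32623 genes, so the lists do not cover them. The labels name the RNAqueous-Micro kit and the methods the miRNeasy kit for RNA extraction. Rats were housed 2 per cage, which animals shared a cage is not given, and p-values measure the spread between the animals sequenced. No 2 libraries of a group agreed within sampling noise (smallest chi-square per degree of freedom 43.4, 29.9 and 79.6).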

Additional observations from a re-analysis of the deposited data

Results flagged for a closer look

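In groups of 6 rats, a value was set aside for a closer look where its gap to the nearest other rat exceeded Dixon's 95% critical share of the range of the group. That limit is set to be passed in about 1 in 20 groups of normally distributed values, and it was applied here to CPM without a log, so the rate may differ. It was passed in 5 of 27 groups of a member. In 4 of them the animal was NASH-CH rat 5: the gap was 0.847 of the range for Cd74 (326 CPM), 0.808 for RT1-Da (83.9 CPM), 0.799 for RT1-Db1 (22.9 CPM) and 0.729 for Ciita (5.1 CPM). The 4 genes vary together, so these are not 4 separate signs. Over all tested genes, rat 5 lay this far above its group in 739 (5.73%). The other was Cd79a in control rat 6, with 0.287 CPM and a gap of 0.654, which rests on 8.35 expected counts.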

How the results depend on the processing

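Calls over all genes moved with the setting, and the members past the threshold stayed at 0 in each comparison under all alternatives, leaving out each rat included, where the lowest adjusted p of a member was 0.0855 (Cd74, NASH-CH against NASH). For NASH against control, the 403 called genes (204 higher) became 652 with edgeR, 1228 with DESeq2, 865 (785 higher) with library size only, 268 with no filter, 644 with the 2 groups fitted alone and 1509 with sample quality weights. For NASH-CH against control, 2192 (1082 higher) became 5495 with no filter and 1408 with the 2 groups alone, and 3270 (2781 higher) with library size only. For NASH-CH against NASH, 542 became 949 with DESeq2, 2649 with no filter and 349 with the 2 groups alone. Leaving out each rat gave 128 to 982, 1519 to 2409 and 346 to 591 genes. In NASH against control the count was 982 without control rat 6, 721 without NASH-CH rat 5, between 128 and 178 without control rat 1, 3, 4 or 5, and between 131 and 233 without NASH rat 1, 3, 4 or 5, and in NASH-CH against NASH it was 346 without NASH rat 3. With library size only the median of all genes shifted by 0.23 and 0.27 on the log2 scale against control. The cause of these moves was not tested. For the correlations, 8 pairs passed, 13 with library size only, and 6 without NASH-CH rat 5, an alternative chosen after seeing the data, as were all alternatives for genes outside the members.

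Of 581 other fits of single members, 551 kept their direction and 30 turned it. In NASH-CH against control, sample quality weights gave -0.20 for RT1-Ba, -0.15 for RT1-Bb, -0.11 for RT1-Da, -0.14 for RT1-Db1 and -0.056 for Ciita, and -0.090 for Ciita in NASH-CH against NASH. Cd79b in NASH-CH against control was -0.095 with edgeR, -0.098 with DESeq2 and -0.061 with the replicate block. In NASH against control, library size only gave 0.053 for RT1-Bb and 0.19 for Ciita, and quality weights 0.034 for Ciita. Leaving out each rat gave, in NASH-CH against control, -0.24 to 0.26 for RT1-Ba, -0.12 to 0.27 for RT1-Bb, -0.20 to 0.23 for RT1-Da, -0.23 to 0.18 for RT1-Db1, -0.095 to 0.38 for Ciita and -0.23 to 0.61 for Cd79b, in NASH-CH against NASH -0.0895 to 0.38 for Ciita, and in NASH against control -0.096 to 0.12 for Ciita.

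Titles number the animals 1 to 6 within a group, and no strong pairing by these numbers was seen. Same-numbered rats had mean correlations of 0.0516, 0.0732 and 0.0154 of their deviations, with 2, 1 and 0 of 6 pairs over 0.1. In each comparison 2 of 6 rats correlated best with their own number, and these values cannot show that a weak pairing is absent. The replicate block gave 444, 2095 and 540 called genes and 0 members.

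Outside the members, leaving out 1 rat ended the NASH-CH against control call of Ctss (control 3, 4 or 5, NASH-CH 3, 4 or 6; highest adjusted p over all fits 0.217), Cd22 (control 3, 4 or 5, NASH-CH 2, 3 or 6; 0.163), Cxcr5 (control 3, 4 or 5, NASH-CH 2 or 6; 0.0885), Ccl21 (any control, NASH-CH 2 or 6; 0.0902), Ltbr (control 1, 3, 4 or 5, NASH-CH 1, 2, 3, 4 or 6; 0.0904), Cd53 (control 1, 2, 3, 4 or 6, NASH-CH 1, 2 or 3; 0.103) and Alb (control 1 or 5, NASH-CH 6; 0.0704). The fit of the 2 groups alone ended these 7 calls too, and library size only ended those of Ctss, Cd22, Csf1r and Apoa1. The calls of 5 further macrophage genes were ended by library size only and by leaving out 1 rat, Cd163 (control 3 or 5, NASH-CH 2, 5 or 6; highest adjusted p 0.218), C1qb (control 3 or 5, NASH-CH 3 or 6; 0.350), C1qc (control 3, 4 or 5, NASH-CH 3, 4 or 6; 0.2997), Clec4f (control 1, 3, 4 or 5, NASH-CH 3, 5 or 6; 0.145) and Vsig4 (control 1, 3, 4 or 5, NASH 1, 2, 3, 4 or 6, NASH-CH 3, 5 or 6; 0.155). The fit of the 2 groups alone ended those of C1qb, C1qc, Clec4f and Vsig4, quality weights those of Cd163, Clec4f and Vsig4, and the replicate block and thinning of the NASH-CH libraries that of Vsig4.

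Low counts limit the B cell genes, and the spread between 6 rats, with NASH-CH rat 5 in it, limits the class II genes.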

Other observations

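Igh-6, an immunoglobulin heavy chain gene by its symbol, rose in NASH-CH against control. It was chosen after its values had been seen. It ran from 0.165 to 0.606 CPM with a median of 0.362 in control, from 0.686 to 1.64 with a median of 1.05 in NASH, and from 1.03 to 5.48 with a median of 3.07 in NASH-CH livers, on 4 to 14, 16 to 48 and 47 to 422 expected counts. Every NASH and every NASH-CH rat lay above all control rats. The share of all tested genes separated in this way was not counted, so the separation is a description only. The log2 fold change was 3.08 in NASH-CH against control (SE 0.57, limma-voom adjusted p = 0.00141, past the threshold in 27 of 27 other fits) and 1.67 in NASH against control (SE 0.64, adjusted p = 0.143), the latter past the threshold in 5 of 27 other fits, among them edgeR and DESeq2. In NASH-CH against NASH it was 1.42 (SE 0.39, adjusted p = 0.0470), a call lost in 21 of 27 other fits. NASH-CH rat 5 had the highest level, 5.48 CPM. The difference between Igh-6 and the B cell members was not tested, and reads of other heavy chain genes could be counted here.

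Ighg, a second heavy chain row named by the same choice, had 0 to 3.73 expected counts in control, 0 to 16.9 in NASH and 0 to 192 in NASH-CH livers, where 5 of 6 rats exceeded every control rat. How many of all genes did so was not counted either. Its log2 fold change in NASH-CH against control was 3.62 with an SE of 1.82 (limma-voom adjusted p = 0.180).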
